A study of Mus musculus with 14 samples.

Results

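NF-κB is a family of dimeric transcription factors that drives inflammatory, immune and survival genes. The transcripts described here are those of 5 of its subunits (*Rela*, *Rel*, *Relb*, *Nfkb1* and *Nfkb2*), of 4 of its inhibitors (*Nfkbia*, *Nfkbib*, *Nfkbie* and *Tnfaip3*) and of 1 activating kinase (*Ikbkb*). The 10 genes were chosen by symbol in the liver table and matched by Ensembl ID to the fibroblast table, and they are 10 of 54532 genes. All 10 passed the filter on low counts in both tissues. As background, the subunits are held in the cytoplasm by inhibitor of κB (IκB) proteins until the IκB kinase (IKK) complex marks the inhibitor for degradation and the dimers enter the nucleus. Several inhibitors are themselves induced by NF-κB and close a negative feedback loop. The pathway can be activated by DNA damage and is known as a driver of the cytokine secretion of senescent cells, and in liver it acts in hepatocytes and in resident immune cells.

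Senescence was induced by deleting *Trf2* (*Terf2*), which encodes a shelterin protein that protects telomeres. iMEFs are fibroblasts of mouse embryos that SV40 large T antigen made immortal, and all iMEF libraries came from Trf2F/F;Rosa-CreER cells, in which Cre is ubiquitous and is activated by 4-hydroxytamoxifen (4HT). Senescent iMEFs were collected on day 7 of 4HT and control iMEFs received vehicle (n = 3 libraries each). No RNA-seq library came from iMEFs given 4HT without loss of *Trf2*, so effects of 4HT, of active Cre and of the loss cannot be told apart. Livers came from Rosa-mTmG mice (control) and Trf2F/F;Rosa-mTmG mice (senescent, n = 4 libraries each), and Rosa-mTmG is a fluorescent reporter of Cre, homozygous in these mice according to the methods. Both liver groups were injected with AAV8-Tbg-Cre, a virus whose TBG promoter restricts Cre to hepatocytes. Senescent livers are labelled as collected at 6 weeks, and the collection is described as 6 to 7 weeks after injection. The mice were of the C57BL/6J background, and no source used here gives the ages of the mice. Whole liver was sequenced, and other liver cells kept *Trf2*. In such bulk samples, fewer cells of a type and less RNA per cell cannot be told apart.

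Libraries held 15364450 to 20177401 reads in genes. *Terf2* fell from 38.2 ± 0.774 to 0.249 ± 0.0482 CPM (reads scaled to library size) in iMEFs (SD, n = 3) and from 12.6 ± 1.35 to 3.82 ± 1.12 CPM in livers (SD, n = 4). *Cdkn1a*, which encodes the cell cycle inhibitor p21, rose from 44.8 ± 4.65 to 199 ± 10.9 CPM in iMEFs and from 20.9 ± 13.0 to 113 ± 42.1 CPM in livers. Senescent iMEFs replicate 3 stood apart from the other iMEF libraries. Its pairs with the other senescent libraries had chi-square values of 24.7 and 29.8 per degree of freedom, against 4.02 to 9.69 for the other pairs, and its share of mitochondrial reads was 2.32% against 0.599% to 0.853%. Hepatocyte markers summed to 81088 to 92969 CPM in control and 90443 to 108311 CPM in senescent livers, and 3 of the 4 senescent livers were above every control. The same held for endothelial cell markers, at 244 to 282 CPM in control and 277 to 330 CPM in senescent livers. In iMEFs, leukocyte lists were low but not empty. The macrophage and Kupffer cell list, with *Adgre1* and *Clec4f* at 0, had reads for 3 of 11 markers in control iMEFs (4.03 to 4.69 CPM) and for 4 in senescent iMEFs (6.27 to 8.31 CPM), and its 1 tested marker was higher in senescent iMEFs. The T and NK cell, B cell and neutrophil lists each summed to at most 0.859 CPM in an iMEF library. Of the 6 fibroblast and stellate cell markers tested in iMEFs, 5 were lower and 1 was higher in senescent iMEFs (adjusted p under 0.05 in edgeR). Among all tested genes 21.2% were lower and 18.6% higher.

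Promoter sequences were available for 7 of the 10 genes, as windows of 250 bases before to 50 bases after each RefSeq start site (GRCm38.p6). They were searched on both strands for the κB consensus, the decamer that NF-κB dimers bind. A match was present for 5 of these 7 genes (71.4%), against 1388 of 27025 genes with a promoter in the table (5.14%) and 1480 of 32851 promoters (4.51%). Those genes are *Tnfaip3*, *Nfkbia*, *Nfkbie*, *Nfkb2* and *Rel*, of which 3 encode inhibitors, and their matching stretches are printed because they show where the family's own genes carry the family's sequence. *Rela* and *Nfkbib* had no match in the window. A match is a description of letters and not a site shown to be bound. Capitals mark the matches, which lie on either strand and overlap by all but 1 base in *Rel* and in the first *Nfkb2* stretch. Where more than 1 base of the window lay in annotated exons, only 30 bases around the match are given, and the window of *Rel* leaves out the 1 such base.

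Tnfaip3, chr10:19015516-19015545, minus strand: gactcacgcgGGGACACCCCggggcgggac
Tnfaip3, chr10:19015411-19015440, minus strand: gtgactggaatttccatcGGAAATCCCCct
Nfkbia, chr12:55492648-55492897, minus strand: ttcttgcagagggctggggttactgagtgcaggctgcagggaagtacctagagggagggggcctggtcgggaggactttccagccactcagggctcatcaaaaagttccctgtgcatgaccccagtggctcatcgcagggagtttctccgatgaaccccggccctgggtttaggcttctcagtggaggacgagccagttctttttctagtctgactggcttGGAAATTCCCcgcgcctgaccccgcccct
Nfkbie, chr17:45555450-45555699, plus strand: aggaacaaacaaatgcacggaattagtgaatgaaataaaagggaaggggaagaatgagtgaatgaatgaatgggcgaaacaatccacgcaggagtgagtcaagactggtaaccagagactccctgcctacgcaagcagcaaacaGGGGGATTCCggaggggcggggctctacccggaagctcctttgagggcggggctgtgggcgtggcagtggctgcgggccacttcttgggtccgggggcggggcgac
Nfkb2, chr19:46304688-46304717, plus strand: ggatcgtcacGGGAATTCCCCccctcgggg
Nfkb2, chr19:46304707-46304736, plus strand: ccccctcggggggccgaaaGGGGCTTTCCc
Rel, chr11:23770971-23771219, minus strand: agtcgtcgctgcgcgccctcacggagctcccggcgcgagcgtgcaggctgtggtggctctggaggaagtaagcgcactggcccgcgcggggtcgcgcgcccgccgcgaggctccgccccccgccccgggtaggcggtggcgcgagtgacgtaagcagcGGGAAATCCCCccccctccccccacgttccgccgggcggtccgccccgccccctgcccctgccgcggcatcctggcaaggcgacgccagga

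The matches of *Tnfaip3* began 125 and 12 bases before its start site, that of *Nfkbia* 29 bases, that of *Nfkbie* 106 bases and that of *Rel* 92 bases before. The printed matches of *Nfkb2* began 39 and 11 bases before its first start site. The windows of the other *Nfkb2* start sites, chr19:46305445-46305744 and chr19:46305680-46305979, overlap. A further match began 236 bases before the start site of the former window. The stretch GGGACTTTCC lies where these windows overlap and was matched in each of them. This stretch began 11 bases after the start site of the former window and 225 bases before that of the latter.

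**Figure D1:**
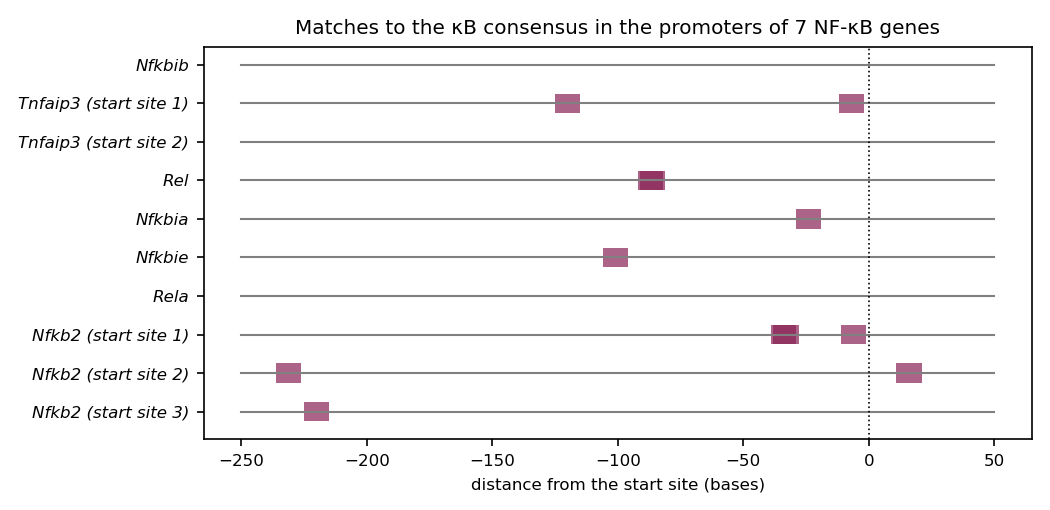
Matches to the κB consensus in the promoters of 7 NF-κB genes. The x axis is the distance from the start site in bases, each grey line is 1 promoter window from 250 bases before to 50 bases after a start site, and each purple block is a match of 10 bases on either strand, darker where matches overlap. *Tnfaip3* and *Nfkb2* hold several matches, and *Rela* and *Nfkbib* hold none. The *Nfkb2* blocks that begin 11 bases after a start site and 225 bases before another are the same stretch, in overlapping windows.

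In iMEFs, 5 of the 10 genes passed an adjusted p of 0.05 in edgeR's quasi-likelihood test, *Tnfaip3* and *Ikbkb* being higher and *Nfkb1*, *Relb* and *Nfkbie* lower in senescent cells. Of all 13561 tested genes 39.8% passed, 18.6% higher and 21.2% lower, so the count of members lies near the background and is no result about them as a group. The median log2 fold change was 0.04 over the members and 0.00 over all tested genes.

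*Tnfaip3* encodes A20, a ubiquitin-editing enzyme that shuts off signaling to IKK, and lies at chr10:19000910-19015657. Its level was 13.1, 9.07 and 10.1 CPM in control replicates 1, 2 and 3 and 26.2, 24.4 and 31.5 CPM in senescent replicates 1, 2 and 3. All senescent libraries were above all controls, and senescent replicate 3 was the highest. The mean rose from 10.8 ± 2.12 to 27.3 ± 3.67 CPM (SD, n = 3), a log2 fold change of 1.34 with a standard error of 0.15 and an adjusted p of 2.04e-05 in edgeR's test. This was a 2.53-fold rise, with a 95% interval of 2.02 to 3.17, and the log2 fold change was 1.24 without senescent replicate 3. *Tnfaip3* had the largest change among the 10 genes in iMEFs.

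*Ikbkb* encodes IKKβ, the catalytic kinase of IKK that phosphorylates IκB proteins, and lies at chr8:22659212-22706589. It had 50.7, 46.7 and 50.4 CPM in control and 58.4, 60.2 and 62.9 CPM in senescent replicates 1, 2 and 3. The groups did not overlap and were narrow. Its log2 fold change was 0.30 (standard error 0.08, edgeR adjusted p = 0.0138). Without control replicate 2, the lowest library, it was 0.25 and no longer passed (adjusted p = 0.0860).

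Among the inhibitors of the IκB type, *Nfkbie* fell. It encodes IκBε, a feedback inhibitor, and lies at chr17:45555703-45563169. Control replicates 1, 2 and 3 were at 21.7, 18.95 and 18.03 CPM and senescent replicates at 10.8, 14.2 and 11.9 CPM. Each senescent library was below each control. The log2 fold change was -0.67 (standard error 0.13, edgeR adjusted p = 0.00151). *Nfkbia* encodes IκBα, the inhibitor that is degraded and resynthesized in the fast response, and lies at chr12:55489410-55492647. It had 57.8, 61.4 and 59.0 CPM in control and 56.2, 52.9 and 44.3 CPM in senescent replicates. These groups did not overlap either, but senescent replicate 1 was close to the lowest control, and the log2 fold change of -0.22 did not pass (unadjusted p = 0.0477, adjusted p = 0.100 in edgeR). Without senescent replicate 3 it was -0.11. *Nfkbib*, which encodes IκBβ at chr7:28758251-28767512, had overlapping groups (19.6 to 22.7 CPM in control and 20.9 to 24.9 CPM in senescent) and a log2 fold change of 0.10 (adjusted p = 0.494). Its exons share 314 bases with *Ccer2* and 42 bases with *Sirt2* on the other strand. Over the iMEF libraries *Ccer2* had 0 counted reads and *Sirt2* had 7564. Since no source used here gives the strand setting of the counting, reads of such pairs may not be told apart.

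Of the subunits, *Nfkb1* and *Relb* fell in senescent iMEFs. *Nfkb1* encodes p105, the precursor of the p50 subunit and itself an IκB-like inhibitor, and lies at chr3:135584655-135691547. It had 162, 159 and 165 CPM in control and 126, 132 and 123 CPM in senescent replicates 1, 2 and 3. The gap between the groups was wider than the spread within either. Its log2 fold change was -0.35 (standard error 0.07, edgeR adjusted p = 0.00208). *Relb* encodes the transactivating subunit of the non-canonical pathway and lies at chr7:19606217-19629438. Its levels were 58.1, 56.1 and 49.6 CPM in control and 40.1, 41.9 and 35.2 CPM in senescent replicates. Again the groups did not overlap. The log2 fold change was -0.48 (standard error 0.10, edgeR adjusted p = 0.00199).

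The other subunits did not pass the test in iMEFs, and their groups overlapped. *Rela*, which encodes p65, the main transactivating subunit of the canonical pathway, lies at chr19:5637483-5648130 and ranged from 130.5 to 138 CPM in control and from 128 to 151 CPM in senescent iMEFs. Its log2 fold change was 0.04 (95% interval -0.14 to 0.22). *Rel* encodes c-Rel, a subunit most abundant in lymphoid cells, at chr11:23736847-23770970. It ranged from 26.1 to 32.4 CPM in control and from 28.1 to 30.8 CPM in senescent iMEFs, with a log2 fold change of 0.03 (-0.19 to 0.26). *Nfkb2* encodes p100, the precursor of the p52 subunit, at chr19:46304320-46312385. It had 109 to 132 CPM in control and 131 to 137 CPM in senescent iMEFs, and its log2 fold change was 0.14 (-0.05 to 0.32). Its exons share 531 bases with the antisense RNA AC114539.1 and 299 bases with *Psd* on the other strand.

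In all, 6 of the 10 genes had iMEF groups that did not overlap, and among all tested genes 50.6% did not. The same 5 genes passed the test without senescent iMEFs replicate 3, where 5907 of all genes passed, against 5400 with every library. The summed level of the fibroblast and stellate cell markers was 13317 to 14532 CPM in control and 2777 to 4035 CPM in senescent iMEFs. This fall of the sum moved with the same groups, and its part in these results was not tested.

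**Figure D2:**
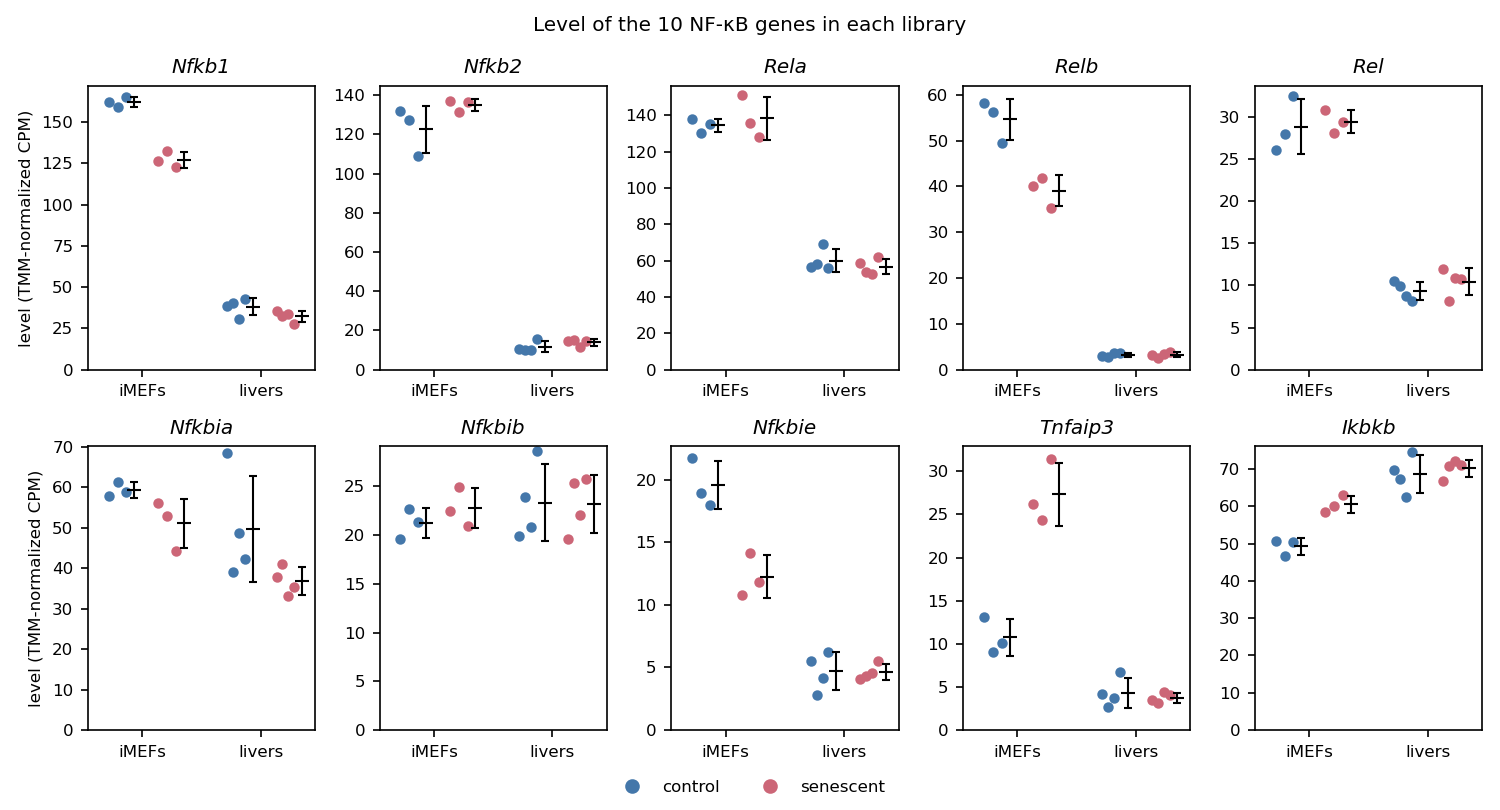
Level of the 10 NF-κB genes in each library, in TMM-normalized CPM normalized separately by tissue, on linear axes that start at 0 and differ between genes. Points are libraries (blue control, red senescent; 3 per iMEF group and 4 per liver group), and the black dash and bar beside them are the mean and SD. *Tnfaip3* is separated between the iMEF groups and overlaps between the liver groups, and liver levels of all 5 subunits, *Nfkbie* and *Tnfaip3* lie below those in iMEFs.

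In livers, 0 of the 10 genes passed the edgeR test, with adjusted p from 0.548 to 0.995. DESeq2 and limma-voom called 0 as well. In edgeR, 1 of the 10 genes had an unadjusted p under 0.05, as did 1076 of all 14270 tested genes. The background was low in livers, where 0.343% of the 14270 tested genes passed (0.308% higher and 0.035% lower). The liver groups did not overlap for 0 of the 10 genes and for 4.51% of all tested genes. The median log2 fold change of the 10 genes was -0.01.

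The gene with an unadjusted p under 0.05 was *Nfkbia*. It had 68.4, 39.2, 48.8 and 42.3 CPM in control livers 1 to 4 and 37.8, 41.2, 33.3 and 35.4 CPM in senescent livers 1 to 4. Control liver 1 was far above the others, all senescent livers were below the control mean, and the groups overlapped. Control livers had a mean of 49.7 ± 13.1 CPM and senescent livers one of 36.9 ± 3.39 CPM (SD, n = 4). The log2 fold change of -0.43 had an unadjusted p of 0.0189 and an adjusted p of 0.548 in edgeR, and the adjusted p ranged from 0.260 to 0.811 over the alternatives. Without control liver 1 the log2 fold change was -0.23.

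*Tnfaip3* was low in livers, with 4.18, 2.63, 3.77 and 6.76 CPM in control livers 1 to 4 and 3.46, 3.10, 4.39 and 4.10 CPM in senescent livers 1 to 4. The senescent livers lay within the range of the controls, of which replicate 4 was the highest. Its fold change was 0.871 with a 95% interval of 0.570 to 1.33, an interval that lies below the whole interval found in iMEFs. *Nfkb1* had 38.9, 40.3, 30.8 and 42.7 CPM in control and 35.4, 32.4, 33.6 and 27.8 CPM in senescent livers. Only control liver 3 was inside the senescent range, and the log2 fold change was -0.24 (-0.50 to 0.02, edgeR adjusted p = 0.688).

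*Nfkb2* had 10.5, 10.1, 10.2 and 15.8 CPM in control and 14.4, 15.4, 11.4 and 14.6 CPM in senescent livers. Control liver 4 stood apart from the other controls and was above every senescent liver. The log2 fold change was 0.26 (-0.11 to 0.62, edgeR adjusted p = 0.768), and without control liver 4 it was 0.44 (adjusted p = 0.353). The other 6 genes had log2 fold changes between -0.08 (*Rela*) and 0.16 (*Rel*), with *Relb* at 0.01, *Nfkbib* at -0.01, *Nfkbie* at -0.02 and *Ikbkb* at 0.03. *Relb* rested on 228 reads in control and 212 reads in senescent livers, all replicates together, and its 95% interval of -0.47 to 0.49 has the fall seen in iMEFs at its edge. The interval of *Ikbkb*, -0.15 to 0.21, was narrower.

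Control liver 4 had the highest level of its group for 7 of the 10 genes. The share of all tested genes for which it was highest was not computed, so this count is no result about the 10 genes. Control liver 4 also had the highest summed levels of B cell markers (30.4 CPM against 14.2 to 17.7), of T and NK cell markers (9.64 against 5.45 to 6.62) and of macrophage and Kupffer cell markers (727 against 333 to 616) among the controls. Its cholangiocyte markers were the highest of the controls as well (112 against 56.5 to 75.9 CPM), and its hepatocyte markers the lowest of all livers (81088 CPM). Among senescent livers, number 4 likewise had the highest B cell (52.3 CPM), T and NK cell (7.75) and cholangiocyte sums (135). Its hepatocyte sum was the lowest of the senescent livers (90443 CPM), and its macrophage and Kupffer cell sum (723 CPM) was below that of senescent liver 2 (730 CPM). Over both groups, the macrophage and Kupffer cell list (all 11 markers with a read) summed to 333 to 727 CPM in control and 606 to 730 CPM in senescent livers, and 0 of its 11 markers passed the edgeR test. The part of these cells in the levels of the NF-κB genes was not tested.

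The change in livers was set against that in iMEFs in 1 edgeR fit over all 14 libraries. *Tnfaip3* was the only one of the 10 genes whose change differed between the tissues, by -1.54 on the log2 scale (liver change minus iMEF change, standard error 0.33, 95% interval -2.24 to -0.84, edgeR adjusted p = 0.00412). Of the 11693 genes tested in both tissues, 17.1% differed. *Relb* (0.49), *Nfkbie* (0.65) and *Ikbkb* (-0.26) had unadjusted p of 0.0291, 0.0420 and 0.0339 for this difference but adjusted p of 0.113, 0.144 and 0.125. For the other 6 genes the difference lay between -0.21 (*Nfkbia*) and 0.13 (*Rel*), and all their 95% intervals held 0. Tissue, means of deletion and time after deletion differ together between the sets of libraries and cannot be told apart.

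**Figure D3:**
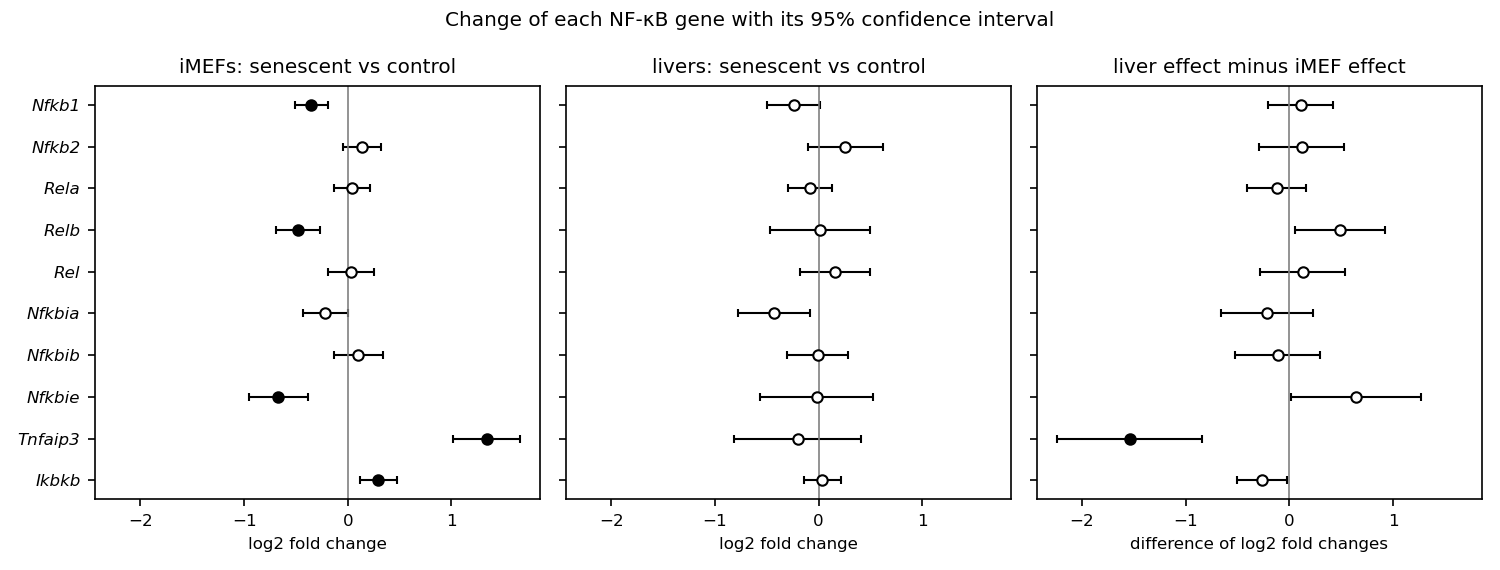
Change of each NF-κB gene, as the log2 fold change of senescent over control in iMEFs (left) and livers (middle) and as the liver change minus the iMEF change (right). Points are edgeR estimates, bars are 95% confidence intervals, and filled points passed an adjusted p of 0.05. The panels hold 5, 0 and 1 filled points, and *Tnfaip3* is filled in the left and right panels.

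Levels were compared between genes as CPM per kilobase of the principal transcript. In control iMEFs *Rela* was highest at 49.5 ± 1.35 CPM per kilobase (SD, n = 3). *Nfkb1* (39.4 ± 0.692), *Nfkb2* (39.1 ± 3.81) and *Nfkbia* (37.6 ± 1.19) followed and overlapped with their neighbours. *Relb* came next at 24.7 ± 2.03, and *Ikbkb*, *Nfkbib*, *Nfkbie*, *Rel* and *Tnfaip3* were at 13.8, 10.3, 8.04, 3.86 and 2.43 CPM per kilobase, each above the next in every library. In senescent iMEFs *Tnfaip3*, at 6.18 ± 0.830, had moved from the tenth to the eighth place and overlapped with *Nfkbie* at 5.04 ± 0.714.

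In control livers the highest levels per kilobase were those of *Nfkbia* (31.5 ± 8.31), *Rela* (22.1 ± 2.34) and *Ikbkb* (19.2 ± 1.42), which overlapped with their neighbours. *Nfkbib* (11.3) and *Nfkb1* (9.27) overlapped with each other, and *Nfkb2* was at 3.71. *Nfkbie*, *Relb*, *Rel* and *Tnfaip3* lay between 1.93 and 0.980 CPM per kilobase with overlapping neighbours. The order of the genes was the same in senescent livers. With the length of all annotated exons in place of the principal transcript, an alternative added after the data were seen, *Nfkb1* moved from place 2 to 5 and *Ikbkb* from 6 to 9 in control iMEFs, while *Rela* stayed first there and *Nfkbia* first in livers.

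Among the 5 subunits alone, *Rela* made up 31.7% ± 1.13 of the summed level per kilobase in control iMEFs and 58.4% ± 5.14 in control livers. *Nfkb1* had overlapping shares in both (25.2% ± 1.13 and 24.6% ± 3.63), whereas *Nfkb2* (24.9% against 9.81%) and *Relb* (15.8% against 3.92%) had smaller shares in livers. In senescent iMEFs the share of *Relb* was 12.1% ± 0.804 and that of *Nfkb1* 21.1% ± 0.894, both below every control library, and the shares of *Nfkb2* (29.4% ± 1.38) and *Rela* (34.7% ± 1.58) were above every control library. In livers the shares of all 5 subunits overlapped between the groups. These shares were not tested, the tissues were normalized separately, and shares within a library sum to a fixed total. They depend on the length used, which was that of the principal transcript. With all annotated exons, *Nfkb1* was at 13.4 and *Rela* at 43.8 CPM per kilobase in control iMEFs, against 39.4 and 49.5 with the principal transcript.

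**Figure D4:**
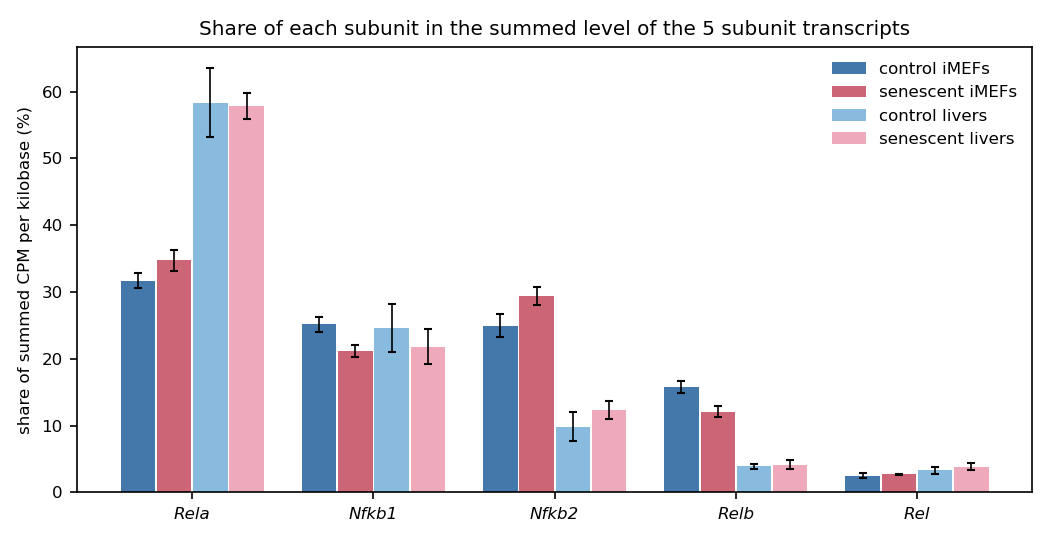
Share of each subunit in the summed level of the 5 subunit transcripts. The y axis is the share of summed CPM per kilobase of the principal transcript in percent, bars are means over libraries (n = 3 for iMEFs, n = 4 for livers) and error bars are SD. *Rela* holds 31.7% in control iMEFs and 58.4% in control livers, and *Relb* holds 15.8% in control and 12.1% in senescent iMEFs.

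Around the 10 genes, 5 lists of other pathway genes and 2 lists of known target genes were examined. In senescent iMEFs, 8 of 62 tested pathway genes were higher and 11 lower, against 18.6% higher and 21.2% lower among all tested genes, and the median log2 fold change was 0.01. Without senescent iMEFs replicate 3, 14 were higher and 11 lower. In that fit 5907 of all genes passed, against 5400 with every library. The counts of the single lists are descriptions and were not tested against this background. Among the IκB-like proteins, *Bcl3*, a nuclear cofactor of p50 and p52, fell (-0.85) and *Nfkbiz*, a nuclear IκB that coactivates secondary response genes, rose (0.75, and 0.47 without senescent replicate 3). Of 9 kinases and adaptors of IKK and TAK1, *Chuk*, which encodes IKKα, rose from 91.5 ± 3.43 to 132 ± 1.69 CPM (log2 fold change 0.52, edgeR adjusted p = 0.000125) and *Tab3*, a TAK1 adaptor, rose by 0.38, with 0 falling.

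Receptors and adaptors upstream of IKK split into 3 higher and 6 lower of 25 tested. *Il1r1*, the interleukin 1 receptor, fell from 99.8 ± 6.14 to 55.2 ± 5.07 CPM (-0.85) and *Card10*, a scaffold of the CARD and BCL10 complex, fell by 0.67 on the log2 scale. *Irak1*, the kinase downstream of that receptor, rose (0.48), as did *Traf3* (0.50), an adaptor that restrains the non-canonical pathway. Of 18 ubiquitin enzymes and negative regulators, 3 fell and 1 rose. *Pdlim2*, a ubiquitin ligase for nuclear p65, had a log2 fold change of -1.42, *Usp18*, an ISG15 protease, of -0.94 and *Tnip1*, a binding partner of A20, of -0.62, while *Rnf11*, another member of the A20 complex, rose (0.55). *Tnip1* thus fell in the libraries in which *Tnfaip3* rose. Of 11 genes that link DNA damage to NF-κB, *Pidd1*, which encodes a scaffold for IKKγ after DNA damage and is also a p53 target, rose from 10.3 ± 1.79 to 33.1 ± 10.6 CPM (1.68), and *Erc1*, a scaffold of IKK, fell (-0.38).

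Targets of NF-κB moved in both directions in iMEFs, with 12 of 31 tested higher and 8 lower, against 18.6% and 21.2% of all tested genes, and a median log2 fold change of 0.03. These shares were not tested against each other. *Cd44* (1.35), a hyaluronan receptor, the chemokine *Cxcl10* (1.32) and the protease *Mmp3* (1.02) rose, and *Vcam1* (-0.98), an adhesion molecule, and *Irf1* (-0.88), an interferon regulatory factor, fell. *Cxcl10* went from 100.1 ± 3.55 to 250.1 ± 32.3 CPM. Among survival genes, the caspase inhibitor *Cflar* (0.73), *Bcl2l1* (0.53) and *Ier3* (0.55) rose, and *Fth1*, a ferritin subunit, fell (-0.31). For the genes named from the lists, the adjusted p in edgeR was at most 0.0214. Many targets also answer to interferon or p53, and the lists were written from general knowledge.

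In livers, 0 of 63 tested pathway genes passed in edgeR, DESeq2 or limma-voom, and 3 had an unadjusted p under 0.05 in edgeR. Of 37 tested targets, 8 had an unadjusted p under 0.05 in edgeR, against 1076 of all 14270 tested genes. The median log2 fold change of the targets was 0.17, and that of all tested genes was -0.004. These shares were not tested against each other. After adjustment, 1 target passed. This was *Lif*, a cytokine of the interleukin 6 family, named after its values were seen, which had 2 reads over the control livers and 18, 36, 39 and 29 reads in senescent livers 1 to 4, or 66.2 times the control level (95% counting interval 17.9 to 553) (edgeR adjusted p = 0.00311). Both control reads were in control liver 4, so the other controls were at 0. The fitted log2 fold change was 3.79, which depends on the prior count, and the interval covers counting error only. In iMEFs *Lif* had 732 reads over the control and 1235 reads over the senescent libraries. *Bcl2l1*, which rose in iMEFs, had 41.3 ± 1.53 CPM in control and 50.3 ± 4.81 CPM in senescent livers (0.29, edgeR adjusted p = 0.461). Of the other survival genes named above, *Cflar* and *Ier3*, which rose in iMEFs, were at -0.21 and -0.11 in livers, and *Fth1*, which fell, was at 0.01. Their adjusted p in edgeR was 0.732, 0.967 and 0.992.

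**Figure D5:**
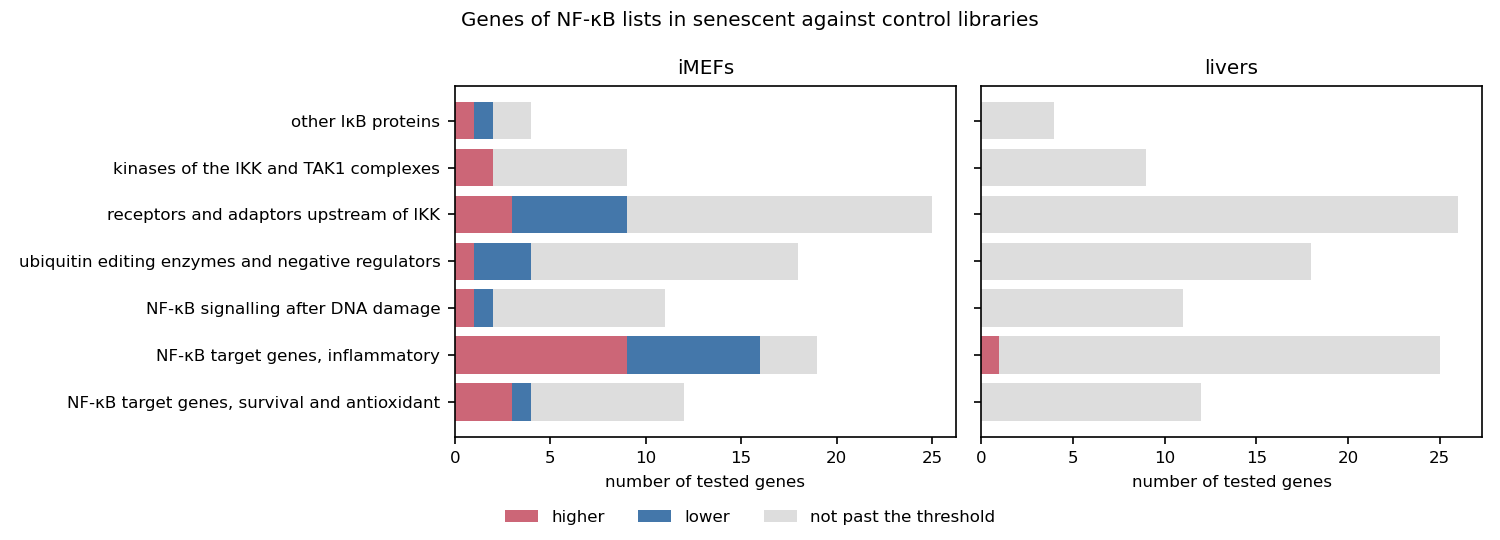
Number of tested genes of each NF-κB list that were higher (red), lower (blue) or not past an adjusted p of 0.05 (grey) in senescent against control libraries, in iMEFs (left) and livers (right). Lists share a few genes. The inflammatory targets in iMEFs split into 9 higher, 7 lower and 3 not past the threshold, and livers have 1 gene past it.

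Set against the promoters described above, matches to the κB consensus did not follow 1 direction. Of the 5 NF-κB genes with a match, *Tnfaip3* rose and *Nfkbie* fell in senescent iMEFs, and *Nfkbia*, *Nfkb2* and *Rel* did not pass the test. Of all 637 tested genes with a match, 17.9% were higher and 26.2% lower in senescent iMEFs, against 19.03% and 21.1% of the 9392 tested genes whose promoters held none. Of the inflammatory targets, 9 of the 25 with a promoter in the table held a match, among them *Cxcl10*, which rose, and *Irf1*, which fell.

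The genes most like *Nfkbia* and *Relb* were sought over the 14 libraries, by Pearson correlation of log2 CPM after subtracting each tissue's mean. The 5 nearest to *Nfkbia* were *Tanc2*, *Pcna*, *Glo1*, *Mrpl49* and *Atg3*, with r from 0.811 to 0.844. The 5 nearest to *Relb* were *Evl*, *Zfp1*, *Prelid1*, *Pradc1* and *Plekha2*, with r from 0.899 to 0.920. None of these is on the NF-κB lists, and the libraries share the group difference in each tissue, so these values are a description.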

How the data were processed

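Total RNA of 3 control and 3 senescent iMEF cultures and of 4 control and 4 senescent livers, called biological replicates in the methods, was sequenced by Novogene as paired-end fragments. The authors deposited raw counts of reads per gene for 54532 genes, 1 table per tissue, made with STAR, featureCounts and mm10 per the submitters' processing notes. No source used here gives versions, annotation release or strand setting. The normalized tables deposited beside them were not used. Genes were annotated with GENCODE M21 (GRCm38).

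Each tissue was fitted with edgeR 4.0.16 (R 4.3.3): the filter was filterByExpr, the scaling TMM and the test the quasi-likelihood test, with log2 fold changes at a prior count of 2 and Benjamini-Hochberg adjustment over all tested genes at a threshold of 0.05. The tissue difference was an interaction contrast over 14 libraries. Levels are TMM-normalized CPM, and intervals are at 95%. The study used DESeq2 (an alternative here, version 1.42.0), and further alternatives were limma-voom (limma 3.58.1), RLE factors, the replicate number as a block, a fit without the filter and leaving out each library. The script was tested on simulated data. Tables and figures were made with Python 3.11.15, numpy 2.4.6, pandas 2.3.3 and matplotlib 3.10.9.

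Depth was 15364450 to 20177401 reads in genes per library, and libraries of 1 group differed by more than sampling noise (chi-square of 4.02 to 35.8 per degree of freedom). The members and the lists of pathway, target and marker genes were chosen with earlier results of these data known. Named from each list were the up to 3 genes with the smallest p past the threshold at a mean of at least 1 CPM, and up to 2 past it in the other direction than most of the list. The 5 genes most like *Nfkbia* and *Relb* were named as well. Promoter windows come from RefSeq (GRCm38.p6), which gave none here for *Nfkb1*, *Relb* and *Ikbkb*.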

Additional observations from a re-analysis of the deposited data

Results flagged for a closer look

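*Nfkb2* in control liver replicate 4 was at 15.8 CPM, against 10.1 to 10.5 CPM in the other controls, and its gap to the nearest library took 0.931 of the range of the group, above Dixon's 95% critical value for 4 samples. Liver groups of the 10 genes gave 20 such comparisons, and chance gives about 1 in 20. The same library had the highest B cell, T and NK cell, macrophage and cholangiocyte marker sums of its group and the lowest hepatocyte sum, whose part in the value was not tested. Except for the macrophage sum, senescent liver 4 held the same places in its own group.

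The effect on *Tnfaip3* differed between the tissues by -1.54 on the log2 scale (edgeR adjusted p = 0.00412), as it rose in all 3 senescent iMEF libraries and did not pass the test in livers.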

How the results depend on the processing

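The same number of NF-κB genes (5 in iMEFs, 0 in livers, 1 for the tissue difference) passed under DESeq2, limma-voom, RLE factors, the replicate block and a fit with no filter on low counts. Leaving out 1 library gave 4 to 5 in iMEFs, 0 in livers and 1 for the difference. Same-numbered control and senescent libraries were correlated on log2 CPM after subtracting the mean of each group. In iMEFs r was -0.171 to -0.005, and for livers 1 to 3 it was -0.083 to -0.002. For livers 4 it was 0.237, and senescent liver 4 was the best partner of control liver 4. The replicate block gave 4696 genes of all tested in iMEFs, 42 in livers and 1842 for the difference. In livers, DESeq2 called 139 of all genes and edgeR without the filter 130, against 49, with 35 to 58 when a library was left out. Of the pathway and target genes in livers, 3 passed without the filter (*Lif*, *Saa1* and *Saa2*), against 1, and 1 to 2 with a library left out. Genes that differed between tissues numbered 1278 to 2161 with a library left out, against 2000, and the lowest number came without control iMEFs replicate 2.

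Only changes that did not pass the test turned direction. *Nfkbie* in livers was at 0.0274 with limma-voom and 0.0234 with the replicate block, and at -0.189 to 0.150 with a library left out. Leaving out a library gave -0.0299 to 0.106 for *Rela* and -0.0406 to 0.119 for *Rel* in iMEFs. In livers it gave -0.0841 to 0.104 for *Relb*, -0.0765 to 0.105 for *Nfkbib*, -0.368 to 0.0913 for *Tnfaip3* and -0.00722 to 0.0779 for *Ikbkb*, and for the tissue difference of *Nfkbib* -0.179 to 0.00648. *Fth1* lost its call without any 1 control iMEF library (adjusted p of 0.0529 to 0.0703 in edgeR), and *Tab3* without control or senescent replicate 1 (0.0522 and 0.0534). The causes were not tested. At 212 to 329 reads per liver group, *Relb*, *Nfkbie* and *Tnfaip3* had the widest intervals.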
